A study of Homo sapiens with 6 samples.

Results

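The actin genes and a set of cytoskeletal genes controlled by serum response factor (SRF) were followed in BT-549 cells, an established triple-negative breast cancer (TNBC) line, with and without silencing of PBRM1, a subunit of the PBAF chromatin remodeling complex. The 10 genes are ACTB, ACTG1, ACTA2, TAGLN, CNN1, MYL9, TPM1, TPM2, VCL and SRF, taken by symbol from the 37887 rows of the count table, and all 10 were found and passed the filter on low counts. They were picked by name with earlier results of this comparison known, so their levels and changes are given as a description, without a test. RNA-seq was available for 3 shCTL and 3 shPBRM1 libraries from cultured cells. The control columns of the count table name the line without the words control shRNA and were taken as shCTL because the other columns name shPBRM1. By title, 3 libraries carry a control shRNA and 3 an shRNA against PBRM1, while the treatment labels give DMSO for shCTL and doxycycline (DOX) for shPBRM1, and the series design describes one cell population with a stable, DOX-inducible PBRM1 shRNA vector, given 0.1% DMSO or 500 ng/ml DOX. A single PBRM1 shRNA is named for these cells, and what DOX did and what the loss of PBRM1 did cannot be told apart. PBRM1 itself had 5870, 7619 and 8118 counts in the shCTL libraries, listed here as elsewhere by replicate number from 1 to 3, against 2598, 1591 and 2657 in the shPBRM1 libraries, which left 26.5% of the control level after scaling. The annotation overlaps PBRM1 on the opposite strand with GNL3, at 186 CPM in shCTL and 149 CPM in shPBRM1. The part of shared reads in the PBRM1 counts was not tested. Total counts were 36429395 to 65096297 per library. Of the markers that define the line, ESR1 had no more than 2 counts and PGR no more than 12 in any library, ERBB2 was at 51.3 CPM in shCTL and 50.02 CPM in shPBRM1, and the mesenchymal gene VIM was at 621 and 770 CPM. The epithelial gene EPCAM had no more than 8 counts, and the leukocyte gene PTPRC had 26, 40 and 44 counts in shCTL and 12, 4 and 6 in shPBRM1, whose part in any result was not tested.

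SRF is a transcription factor that binds the CArG box, a run of A and T between a pair of C and a pair of G. It works with cofactors of 2 kinds. The myocardin family, MYOCD, MRTFA and MRTFB, links SRF to the actin cytoskeleton, because MRTF proteins are held by free actin monomers and are released when actin is driven into filaments. The ternary complex factors, ELK1, ELK3 and ELK4, link SRF to ERK signaling and to the immediate early genes. ACTB and ACTG1 encode the cytoplasmic beta and gamma actins of all cells, and ACTA2 encodes the smooth muscle alpha actin of contractile cells and myofibroblasts.

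The boxes near the starts of these genes are shown first, as the letters by which SRF is known to bind. RefSeq promoter windows of GRCh38.p14, from 250 bases before to 50 bases after a gene start, were at hand for 7 of the 10 genes and not for ACTB, TAGLN and MYL9. An exact CArG box was found in the windows of 2 genes, SRF and ACTG1. ACTA2 had none, but 2 boxes when 1 mismatch was allowed. The boxes are in capitals and lie upstream of the start.
SRF, chr6:43171229-43171258, plus strand: ctggggctcaCCATATAAGGagcggcctcg
SRF, chr6:43171249-43171278, plus strand: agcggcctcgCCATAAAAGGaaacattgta
ACTG1, chr17:81512874-81512903, minus strand: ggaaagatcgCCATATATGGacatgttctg
ACTA2, 1 mismatch, chr10:88952875-88952904, minus strand: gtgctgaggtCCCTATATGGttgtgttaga
ACTA2, 1 mismatch, chr10:88952825-88952854, minus strand: tgtctttgctCCTTGTTTGGgaagcaagtg
The SRF window with exact boxes held 2 of them, 20 bases apart, so that the gene of the factor carries the motif of its own product. No match was found for TPM1, TPM2, VCL and CNN1, which says only that these letters are not in these windows. The pattern of the box is the same on both strands, though the letters of a single box can differ. It was present in 1.29% of the 35116 windows in the table, and in 18.9% when 1 mismatch was allowed.

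Levels are given in CPM, counts scaled for depth by the TMM-adjusted library total, with the SD over the 3 libraries of a group after ±, and log2FC is the log2 of the ratio of shPBRM1 to shCTL with its standard error (SE). The 10 genes divided into a larger group with higher levels and a smaller group with much lower levels in shPBRM1 cells. ACTB, ACTG1, TPM1, TPM2, VCL, TAGLN and SRF were higher, with fold changes from 1.37 to 1.86. ACTA2 and MYL9, genes of contractile cells, were lower, at 12.5% and 30.8% of the shCTL level. CNN1 was close to the limit of detection in both groups and its values overlapped. Counts come from whole cultures, so fewer cells expressing a gene and less RNA per cell cannot be told apart. Calls were made by the quasi-likelihood test of edgeR at an adjusted p of 0.05, over all 15450 genes that passed the filter. By this rule 7 of the 10 were higher, where 31.5% of all genes were called higher, and 2 were lower, where 33.2% were called lower, so that 9 of the 10 were called at all, where 64.7% of all genes were. Past a fold change of 2 were only ACTA2 and MYL9, both lower, with 9.68% of all genes called lower and 2.87% called higher under that rule. The groups did not overlap for 9 of the 10, as for 68.3% of all genes. The median log2FC was 0.48 for the 10 genes and -0.0080 for all genes tested, and nothing is read from these counts, since the genes were chosen with the comparison known.

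**Figure D1:**
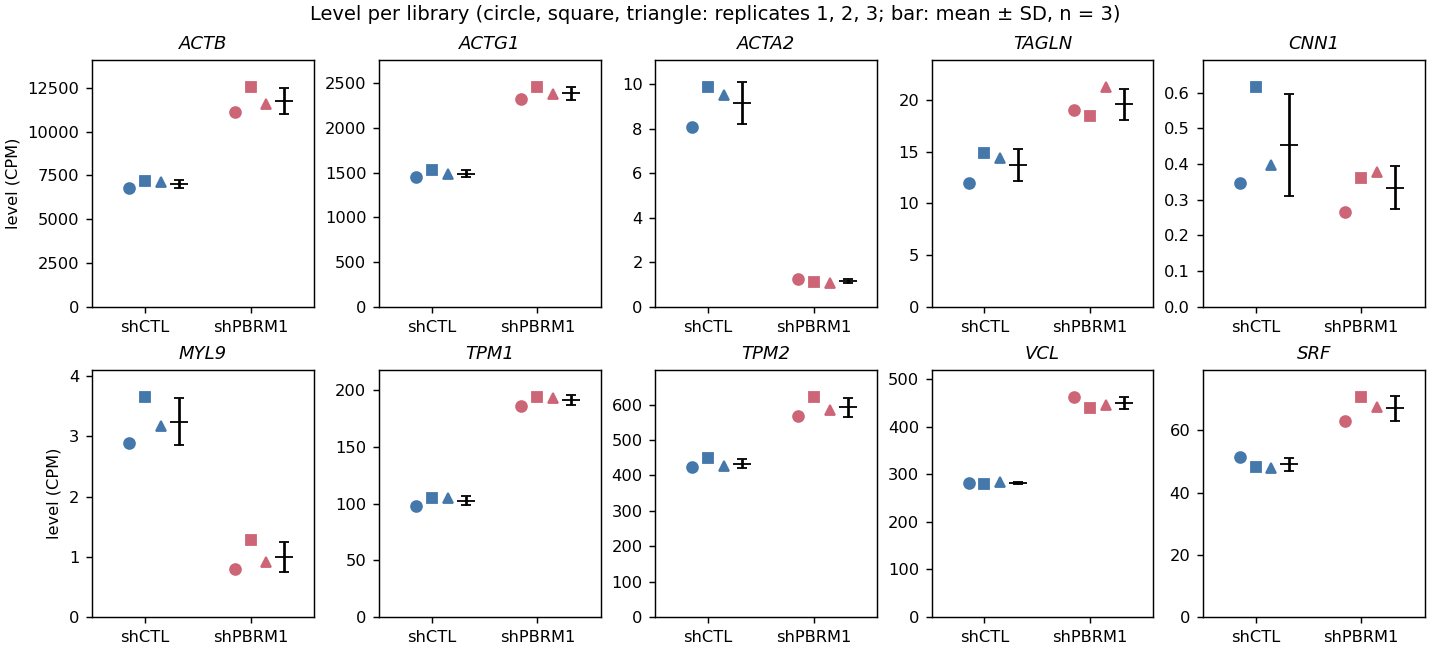
Level of each of the 10 genes in CPM (linear axis from 0, a separate scale for each gene) in shCTL and shPBRM1 libraries; points are replicates 1, 2 and 3 and bars are the mean ± SD (n = 3). The shPBRM1 points of ACTB, ACTG1, TAGLN, TPM1, TPM2, VCL and SRF lie above all shCTL points, those of ACTA2 and MYL9 lie below, and those of CNN1 overlap.

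ACTB, on chromosome 7 from 5527147 to 5563784 of GRCh38 by GENCODE v29, was the most abundant of the 10 genes. Its levels were 6785, 7207 and 7105 CPM in the shCTL libraries and 11118, 12578 and 11603 CPM in the shPBRM1 libraries. The lowest shPBRM1 library lay well above the highest shCTL library. The means were 7032 ± 220 CPM and 11766 ± 744 CPM, log2FC 0.74 (SE 0.058). ACTB alone took 0.695% to 0.730% of the counts of a shCTL library and 1.11% to 1.22% of those of a shPBRM1 library. ACTG1, on chromosome 17 from 81509971 to 81523847, had 1451, 1534 and 1484 CPM in shCTL and 2320, 2462 and 2376 CPM in shPBRM1. Its mean went from 1490 ± 42.0 CPM to 2386 ± 71.1 CPM, log2FC 0.68 (SE 0.034). Both cytoplasmic actins were thus higher by similar amounts in each shPBRM1 library. Between 4.68 and 4.79 ACTB counts were found for each ACTG1 count in shCTL, and between 4.79 and 5.11 in shPBRM1.

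ACTA2, on chromosome 10 from 88935074 to 88991339, went the other way. Its raw counts were 302, 481 and 480 in shCTL and 75, 44 and 68 in shPBRM1, or 8.09, 9.89 and 9.52 CPM against 1.25, 1.13 and 1.07 CPM. Every shPBRM1 library lay far below every shCTL library. The mean was 9.17 ± 0.951 CPM in shCTL and 1.15 ± 0.0926 CPM in shPBRM1, 7.98-fold lower (log2FC -3.0, SE 0.11). In the summed counts of the 6 actin genes, ACTB made up 82.4 ± 0.180% in shCTL and 83.1 ± 0.462% in shPBRM1, and ACTG1 17.5 ± 0.182% and 16.9 ± 0.462%. ACTA2 was 0.107 ± 0.0080% of actin counts in shCTL and 0.0081 ± 0.0010% in shPBRM1. Cytoplasmic actin transcripts therefore dominated in all libraries, and the number of ACTB counts for each ACTA2 count went from between 728 and 839 in shCTL to between 8899 and 11124.5 in shPBRM1. The striated muscle actin ACTC1 and the enteric smooth muscle actin ACTG2 were near the floor of detection, taken as 3 counts. The other striated muscle actin, ACTA1, was low but passed the filter on low counts. ACTA1 had 0 to 18 counts in a library, ACTG2 no more than 2, and ACTC1 2 counts in 1 shCTL library and 0 in the others.

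Reads near ACTA2 need care, because the annotation overlaps it on the opposite strand with FAS, a death receptor gene, and STAMBPL1, a deubiquitinase gene. The kit was stranded, but the sources do not state whether the counting used the strand. FAS fell from 8.25 ± 0.436 CPM to 2.10 ± 0.338 CPM, log2FC -1.98 (SE 0.14, edgeR adjusted p = 2.03e-12). STAMBPL1 fell from 7.51 ± 0.258 CPM to 2.94 ± 0.286 CPM, log2FC -1.34 (SE 0.083, edgeR adjusted p = 2.62e-10). The change of ACTA2 was larger than that of either neighbor, and the part of shared reads in it was not tested. ACTB and ACTG1 have many near-identical processed copies. In the 16 listed pseudogenes and POTE genes, which carry an actin sequence, the summed counts were 273 to 657 per library, or 0.0689% to 0.0972% of those of ACTB and ACTG1 together. Among them 11 were tested and 4 were called higher, namely ACTBP2, POTEE, POTEJ and ACTBP11, where 31.5% of all genes were called higher. ACTBP2, the most abundant of them, rose by log2FC 0.70 (SE 0.20, edgeR adjusted p = 0.00111). The number called is 1 with DESeq2, or without shCTL replicate 1 or shPBRM1 replicate 3, and 2 without shCTL replicate 3 or shPBRM1 replicate 2. Reads that map to several copies can be lost or moved, so levels of these copies and small differences between ACTB and ACTG1 are uncertain.

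The tropomyosins, which lie along actin filaments, were higher. TPM1, on chromosome 15 from 63042632 to 63071915, had 97.7, 105 and 105 CPM in shCTL and 186, 194 and 193 CPM in shPBRM1. With means of 103 ± 4.26 CPM and 191 ± 4.53 CPM, its log2FC of 0.90 (SE 0.040) was the largest in the higher direction among the 10 genes. TPM2, on chromosome 9 from 35681992 to 35690121, had 424, 448 and 428 CPM in shCTL and 569, 622 and 584 CPM in shPBRM1, log2FC 0.45 (SE 0.046). In both genes the groups were separate. The counts sum over splice forms, so that muscle and cytoskeletal forms of TPM1 and TPM2 cannot be told apart. Of the other tropomyosins, TPM3 rose from 402 ± 13.7 CPM to 575 ± 39.9 CPM, log2FC 0.51 (SE 0.065, edgeR adjusted p = 1.50e-09). TPM4 rose by log2FC 0.15 (SE 0.018, edgeR adjusted p = 8.57e-04).

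VCL encodes vinculin, which couples actin filaments to cell adhesions, and lies on chromosome 10 from 73995193 to 74121363. It had 282, 279 and 284 CPM in shCTL and 463, 438 and 447 CPM in shPBRM1. The shCTL libraries were close together, at 282 ± 2.12 CPM, and all shPBRM1 libraries were higher, with log2FC 0.67 (SE 0.024). On the opposite strand VCL overlaps AP3M1, whose level was 26.9% of that of VCL in shCTL. TAGLN encodes transgelin, an actin-bundling protein often used as a smooth muscle marker, and lies on chromosome 11 from 117199321 to 117204782. It had 12.0, 14.8 and 14.3 CPM in shCTL and 19.0, 18.4 and 21.3 CPM in shPBRM1, log2FC 0.51 (SE 0.11). The groups were separate but closer than for VCL, and the annotation overlaps TAGLN with the more abundant PCSK7, whose log2FC was 0.22, on the opposite strand. TAGLN thus differed in direction from ACTA2, with which it is usually listed as a contractile gene.

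MYL9 encodes a regulatory light chain of smooth muscle and nonmuscle myosin and lies on chromosome 20 from 36541484 to 36551447. Its counts were 108, 178 and 160 in shCTL and 48, 50 and 58 in shPBRM1, or 2.89, 3.66 and 3.17 CPM against 0.800, 1.28 and 0.910 CPM. The lowest shCTL library was above the highest shPBRM1 library, and the log2FC was -1.74 (SE 0.22). On the opposite strand MYL9 overlaps DLGAP4-AS1, at 0.357 CPM in shCTL and 0.465 CPM in shPBRM1, and the part of shared reads was not tested. CNN1 encodes calponin, a smooth muscle protein that binds actin, and lies on chromosome 19 from 11538717 to 11550323. Its counts were 13, 30 and 20 in shCTL and 16, 14 and 24 in shPBRM1. At 0.454 ± 0.143 CPM and 0.334 ± 0.0593 CPM, the groups overlapped and no difference was detectable at this depth (log2FC -0.46, SE 0.27). The paralogs of MYL9 and CNN1 used by nonmuscle cells were far more abundant. MYL12A and MYL12B were at 204 and 202 CPM in shCTL and rose by log2FC 0.093 (edgeR adjusted p = 0.0246) and 0.11 (edgeR adjusted p = 0.0165). MYL6B, which overlaps MYL6, rose by 0.18 (edgeR adjusted p = 0.0148). These small changes did not hold throughout, as the calls of MYL12A, MYL12B and MYL6B were lost with library size only and without some single libraries. MYL6, an essential light chain, rose from 192 ± 5.06 CPM to 299 ± 12.6 CPM, log2FC 0.64 (edgeR adjusted p = 2.00e-12), although it overlaps SMARCC2 and MYL6B in the annotation. CNN2 rose from 156 ± 2.30 CPM to 243 ± 7.51 CPM, log2FC 0.64 (edgeR adjusted p = 3.65e-13), and CNN3 by 0.27 (edgeR adjusted p = 4.01e-06). Of 13 listed paralogs of the 10 genes, 10 were tested, 8 rose and the other 2, ACTA1 and TAGLN2, did not pass the threshold. Of all genes, 31.5% were called higher and 33.2% lower. CNN2, MYL6, TPM3 and TPM4 are counted again below among other cytoskeletal SRF targets. With library size only, 5 of the paralogs rose and 1 fell. With the replicate block TAGLN2 passed as lower (log2FC -0.07, edgeR adjusted p = 0.0489), against 0.153 without it.

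**Figure D2:**
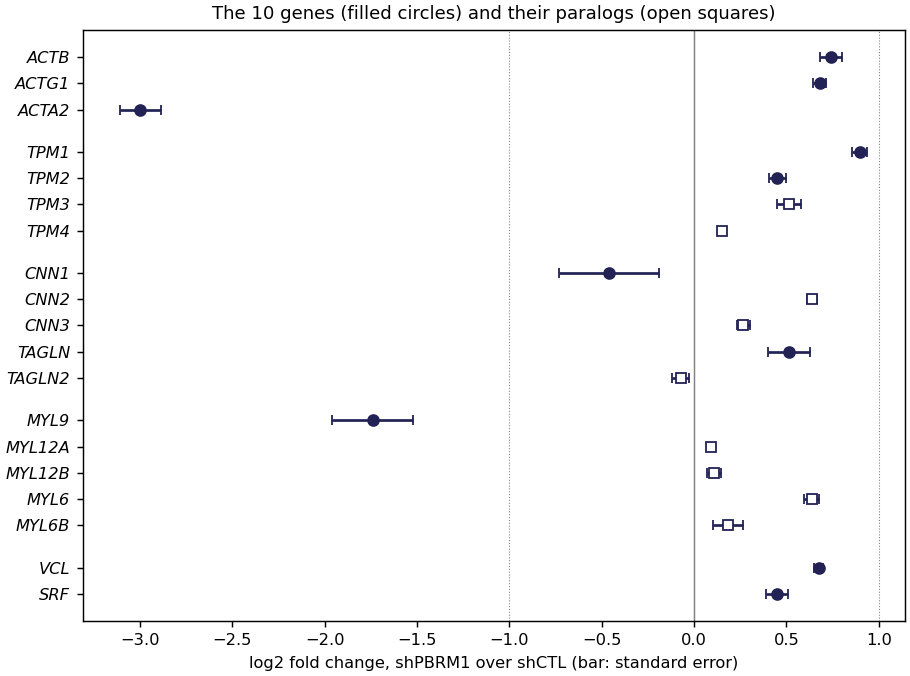
Log2FC of shPBRM1 over shCTL for the 10 genes (filled circles) and their tested paralogs (open squares) in blocks of related proteins, with the standard error as bar and dotted lines at a fold change of 2; ACTA1 is not drawn because of its low counts. ACTA2 at -3.0 and MYL9 at -1.74 stand apart from their relatives, which lie between -0.07 for TAGLN2 and 0.90 for TPM1 except for CNN1 at -0.46.

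SRF, on chromosome 6 from 43171299 to 43181507, had 51.5, 48.2 and 47.8 CPM in shCTL and 62.9, 70.9 and 67.6 CPM in shPBRM1. All shPBRM1 libraries were above all shCTL libraries, with means of 49.2 ± 2.04 CPM and 67.1 ± 4.0 CPM and log2FC 0.45 (SE 0.060). When 11541 genes averaging 100 counts or more were compared, the profile of log2 CPM over the 6 libraries was most like that of SRF for ATP5MC1, UBAC2 and CYB5B, with Pearson's r of 0.999, 0.998 and 0.997. These 6 points fall into the 2 groups, and all genes share the same libraries. Of 7 listed cofactors 6 were tested, 3 rose, 2 fell and 1 did not pass, with a median log2FC of 0.07. These counts are near the shares of all genes, 31.5% called higher and 33.2% called lower, and nothing is read from them. MRTFA rose from 48.3 ± 2.98 CPM to 56.5 ± 3.04 CPM, log2FC 0.23 (SE 0.068, edgeR adjusted p = 3.23e-04). MRTFB fell from 62.1 ± 3.81 CPM to 48.4 ± 1.11 CPM, log2FC -0.36 (SE 0.054, edgeR adjusted p = 2.71e-07). MYOCD, the myocardin of cardiac and smooth muscle, was singled out after its values were seen. It had 23, 35 and 29 counts in shCTL and 0 in each shPBRM1 library, at least 10.98-fold lower against a floor of 3 counts per library, and it was called lower (edgeR adjusted p = 7.64e-08). ELK1 and ELK3 rose by log2FC 0.20 (edgeR adjusted p = 1.04e-04) and 0.22 (edgeR adjusted p = 4.67e-05), and ELK4 had -0.06 (edgeR adjusted p = 0.139).

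Per kilobase of annotated exon, which allows levels of different genes to be compared, the shCTL order was ACTB at 1998, ACTG1 at 498, TPM2 at 133, VCL at 28.2, SRF at 11.7, TPM1 at 7.97, TAGLN at 3.50, ACTA2 at 3.08, MYL9 at 1.15 and CNN1 at 0.157 CPM per kilobase. Each gene was separate from the next over the 3 libraries except TAGLN and ACTA2, whose values overlapped. In shPBRM1 the order was kept from ACTB at 3344 to CNN1 at 0.116 CPM per kilobase, but other neighbors overlapped, namely SRF with TPM1 at 16.0 and 14.9, and ACTA2 with MYL9 at 0.386 and 0.354 CPM per kilobase. Lengths cover the exons of all annotated transcripts, so that levels of genes with many transcripts, such as TPM1, are understated.

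Lists of textbook SRF and actin genes, drawn up with earlier results of these data known, were set around the 10 genes. Genes named for large changes were picked from those already called, so their adjusted p-values only describe them. Beside the lists, all genes gave 31.5% higher and 33.2% lower, with a median log2FC of -0.0080. Of 22 tested genes among other cytoskeletal SRF targets, 12 rose, 5 fell and 5 did not pass, with a median of 0.16. CNN2 and MYL6, given above, were the largest of those that rose. MYLK, the kinase that phosphorylates myosin regulatory light chains, had 1073, 1283 and 1372 counts in shCTL and 218, 140 and 224 in shPBRM1. It fell 7.66-fold, from 27.4 ± 1.20 CPM to 3.58 ± 0.0602 CPM, with log2FC -2.94 (SE 0.039, edgeR adjusted p = 1.91e-19). FHL1, a LIM-domain gene of muscle, fell by 0.68 on the log2 scale (SE 0.11, edgeR adjusted p = 8.51e-06). The others that fell were FHL2 at -0.54, PDLIM5 at -0.35 and CALD1, the caldesmon gene, at -0.087 (edgeR adjusted p = 0.0397), named after their values were seen. The call of CALD1 was lost in 7 of 13 alternatives, with DESeq2, with RLE factors, with no low count filter, and without shCTL replicate 3 (log2FC -0.050) or any 1 of the shPBRM1 libraries.

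**Figure D3:**
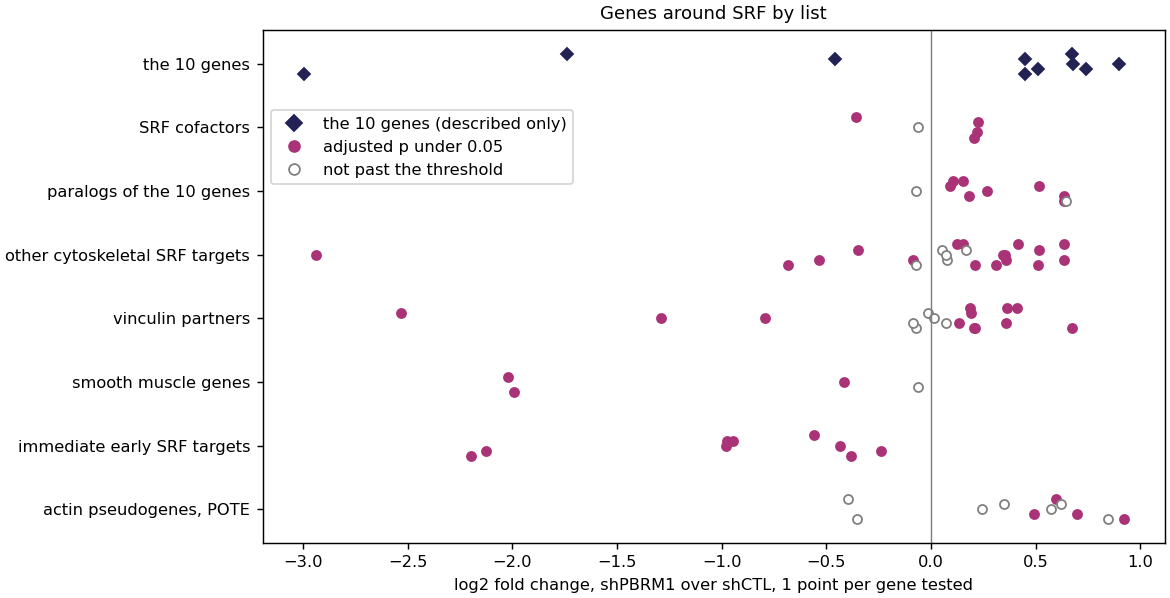
Log2FC of shPBRM1 over shCTL for the tested genes of each list, 1 point per gene, with filled circles for an adjusted p under 0.05, open circles for genes not past it and diamonds for the 10 genes, which are described without a test; a gene may be in more than 1 list, and MYOCD is not drawn because its shPBRM1 counts are 0. The immediate early genes and the tested smooth muscle genes all lie below 0, the cytoskeletal lists lie mostly above 0 with single genes far below it, and MYLK is at -2.94.

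The immediate early genes, which SRF and the ternary complex factors switch on within minutes of a stimulus, were lower throughout. Of 10 listed genes 9 were tested and all 9 fell, with a median log2FC of -0.94, in edgeR's quasi-likelihood test. Of all genes, 33.2% were called lower, and the list was drawn up with earlier results known. EGR1, a zinc finger transcription factor, had 193, 189 and 185 CPM in shCTL and 39.1, 44.9 and 39.9 CPM in shPBRM1. It fell from 189 ± 4.16 CPM to 41.3 ± 3.11 CPM, log2FC -2.20 (SE 0.064, edgeR adjusted p = 5.56e-22). The AP-1 gene FOS fell by 0.97 on the log2 scale (SE 0.049, edgeR adjusted p = 1.25e-08), the nuclear receptor gene NR4A1 by 0.94 (SE 0.14, edgeR adjusted p = 1.09e-07) and FOSB by 0.56 (SE 0.051, edgeR adjusted p = 2.03e-04). FOSB overlaps the far more abundant ERCC1 on the opposite strand, whose log2FC was -0.23. Past a fold change of 2 were EGR1 and EGR2, the latter with 84, 124 and 119 counts in shCTL and 32, 26 and 30 in shPBRM1, and the smallest change was in JUNB, at -0.24. EGR2 and JUNB were picked for mention from their values. These differences have the opposite sign to those of SRF, ACTB, ACTG1, TPM1, TPM2, VCL and TAGLN and the same sign as those of ACTA2, MYL9 and MYLK.

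**Figure D4:**
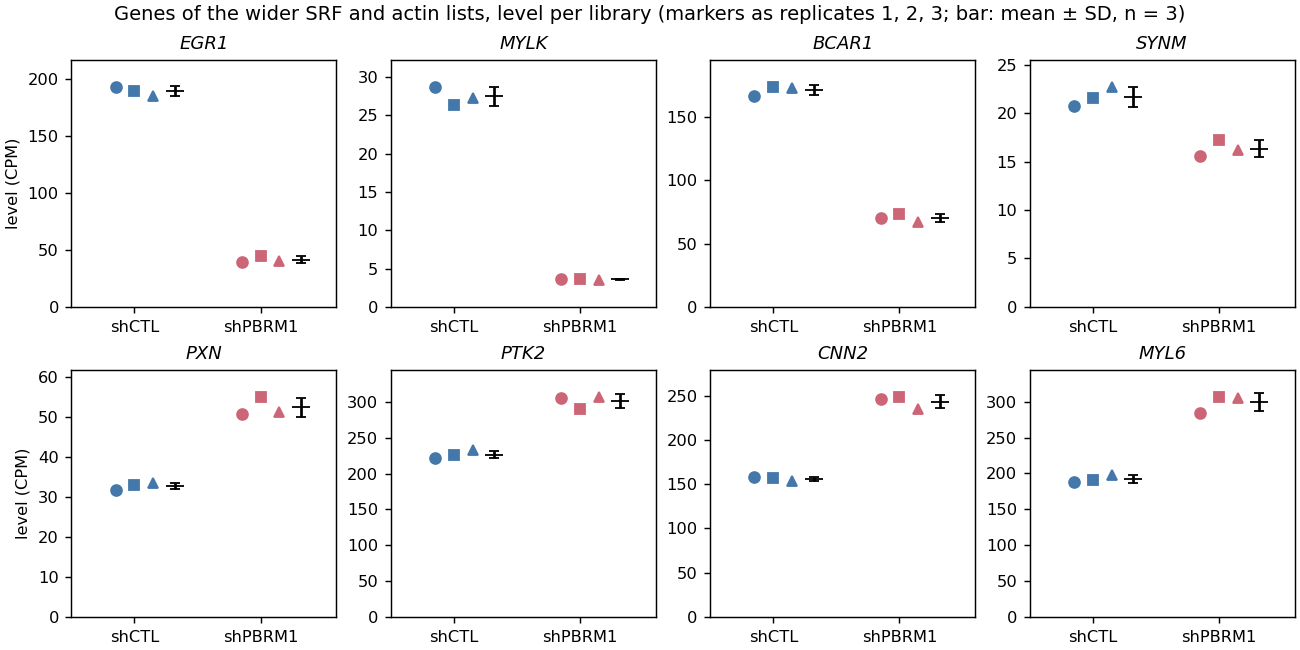
Level in CPM (linear axis from 0, a separate scale for each gene) of 4 genes that fell and 4 that rose in the lists around SRF; points are replicates 1, 2 and 3 and bars the mean ± SD (n = 3). The groups do not overlap for any of the 8 genes, and EGR1, MYLK and BCAR1 are the ones that fell by a fold change over 2.

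Among 17 partners of vinculin at focal adhesions, all tested, 9 rose, 3 fell and 5 did not pass, with a median log2FC of 0.14. Of all genes, 31.5% were called higher and 33.2% lower. PXN, the adapter paxillin, rose by log2FC 0.67 (SE 0.043, edgeR adjusted p = 2.19e-11), and PTK2, the focal adhesion kinase, by 0.41 (SE 0.033, edgeR adjusted p = 2.78e-09). BCAR1, the adapter p130Cas, had 6232, 8469 and 8731 counts in shCTL and 4201, 2846 and 4299 in shPBRM1. It fell from 171 ± 3.90 CPM to 70.2 ± 2.85 CPM, log2FC -1.29 (SE 0.039, edgeR adjusted p = 7.51e-19). TLN2, the less abundant talin, fell by 0.80 on the log2 scale (SE 0.080, edgeR adjusted p = 2.87e-09). TNS1, a tensin gene named after its values were seen, also fell, on 10, 18 and 22 counts in shCTL and 8, 0 and 2 in shPBRM1, while TLN1 had 0.07 (edgeR adjusted p = 0.135, or 0.0402 without shPBRM1 replicate 3). Of 8 smooth muscle differentiation genes 4 had enough counts and were tested, with a median log2FC of -1.20. Among the 4, 3 fell, where 33.2% of all genes were called lower, and SMTN did not pass. Of those that fell, DES and SYNPO2, named after their values were seen, had no more than 15 and 169 counts in a library. MYH11, the smooth muscle myosin, had no more than 4 counts in any library. SYNM, an intermediate filament gene, fell by 0.41 on the log2 scale (SE 0.059, edgeR adjusted p = 8.92e-06).

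Genes with and without a CArG box near the start are set side by side as a description. Of 168 tested genes with an exact box in a promoter window, 34.5% were called higher and 37.5% lower, with a median log2FC of -0.06. Of 11005 tested genes with a window and no exact box, 33.0% were called higher and 34.9% lower, with a median of -0.02.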

How the data were processed

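Total RNA of 3 shCTL and 3 shPBRM1 cultures of BT-549 cells was made into stranded poly(A) libraries. The submitters' processing notes name CASAVA 1.8.2, STAR 2.7.9a, featureCounts, DESeq2 1.24.0 and the build GRCh38.p7; the annotation and strand setting are not given in the sources used here. What the authors deposited and what was used are whole-number raw counts by gene symbol, without normalization. Cells were grown in triplicate per the study's methods, which do not say whether the cultures differed in passage or day, so p-values measure the spread between these libraries, which may be technical. Libraries of a group differed by more than sampling noise (chi-square per degree of freedom 4.92 to 24.9). Of counts from 6 to 20, 65.2% to 66.8% were even, against 49.1% to 50.8% of those over 1000, so that low counts may not be independent molecules. Floors and counts cover counting error only.

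Counts were scaled by TMM, filtered with filterByExpr and tested with edgeR 4.0.16 in R 4.3.3 (quasi-likelihood, Benjamini-Hochberg over 15450 genes). Standard errors come from log2 CPM with a prior count of 2. On simulated counts with 200 genes changed 4-fold, 200 were recovered among 15402 tested, with 12 false calls. The changed genes averaged 50 counts or more, and the simulated libraries shared no replicate deviations. In the data 64.7% of genes were called, many with smaller changes, so the simulation does not give the error of these calls. The members and lists were chosen with earlier results of these data known. Named are the 10 genes, PBRM1, the cofactors and paralogs, of each list up to 4 genes with the largest changes (adjusted p under 0.05, averaging 100 counts or more, groups not overlapping) and the 3 profiles most like SRF; genes outside this rule were named after their values were seen. One gene list is not reported here. In all, 4 list symbols were matched through older names in the RefSeq gene table. Exon lengths and positions are those of GENCODE v29 and promoters those of RefSeq. Libraries with the same replicate number, taken from the titles, deviated together (correlations of 0.734, 0.593 and 0.419 across 5622 genes), so a replicate block was also fitted. Other alternatives were DESeq2 1.42.0, RLE and upper quartile factors, library size only, other filters and each library left out.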

Additional observations from a re-analysis of the deposited data

How the results depend on the processing

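The 10 genes kept their direction under every alternative in which they were tested (CNN1 dropped out when an average of 50 counts was required), and the calls stayed at 7 higher and 2 lower, with each library left out in turn too. Of all genes, 31.5% were called higher and 33.2% lower in the main fit. With a library left out, 4598 to 4758 genes were called higher and 4815 to 5028 lower. Nothing is read from the steady counts, since the 10 genes were chosen with the comparison known. Among the 10 genes, log2 fold changes spanned -3.08 to -2.93 for ACTA2, -1.92 to -1.60 for MYL9, 0.69 to 0.79 for ACTB and 0.40 to 0.50 for SRF. Those of ACTG1 and VCL moved by more than the replicate spread with library size only, to 0.63 for each. Under that setting the log2 fold changes of all genes shifted by a median of -0.048. The replicate block moved none of the 10 by more than 0.055. It changed no other call count by over 1.5 times than that of paralogs called lower, 1 (TAGLN2, log2 fold change -0.07) against 0 without the block; library size only also gave 1 lower and 5 higher paralogs. ELK4 passed with library size only, at -0.11. Calls were lost in 7 of 13 alternatives for CALD1, 5 for MYL12A, 3 each for MYL12B and MYL6B, 3 for POTEE and 5 for POTEJ, and in 10 of 12 for ACTBP11; ACTA1, not called, ranged from -0.0012 without shCTL replicate 3 to 1.66 without shCTL replicate 1. A mean of at least 50 counts left 270 genes higher and 941 lower past a fold change of 2, and 1 cofactor lower, since fewer genes were tested. Actin copies called higher were 1 with DESeq2 and 1 to 4 with a library left out, of 4. Allowing 1 mismatch raised windows with a CArG box to 18.9%. The cause was not tested for any shift other than that of the count filter. Groups of 3 are too small for a test of outlying libraries. Depth limits CNN1, MYOCD and the muscle actins.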
